A study of Arabidopsis thaliana with 18 samples.

Results

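Of 39236 windows of 100 bp with a methylation level in all 9 lines, 298 were at least 0.2 below Columbia wild type (Col-wt) in both epiRIL 150 and epiRIL 232 but less than 0.2 below it in epiRIL 193. A level is the fraction of methylation, from 0 to 1, read by bisulfite sequencing, and "lost" below means at least 0.2 under Col-wt. The windows were chosen by the levels of epiRIL 150, epiRIL 232, epiRIL 193 and Col-wt, which are therefore described and not tested. EpiRIL 92 and the 4 epiHybrids had no part in the choice. Windows start every 50 bp, so neighbours share bases, and the 298 windows covered 19000 bp.

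The study sequenced genomic DNA from above-ground rosettes of Arabidopsis thaliana plants 21 to 22 days old, counted from sowing and kept under 16 h of light and 8 h of dark. It covered epiRILs 150, 232, 193 and 92, an epiHybrid named after each of them, and Col-wt, with 2 libraries per line. EpiRILs (epigenetic recombinant inbred lines) share nearly all of their DNA sequence and carry chromosome stretches from a parent with reduced methylation, known in this population as a mutant of the chromatin remodeller DDM1. An epiHybrid is the first-generation offspring of an epiRIL, crossed here with Col-wt, as the deposited mid-parent differences show. The table gives 1 level per line and window, with both libraries combined, so that no value below has a replicate error and no test between lines was possible.

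In plants, cytosines are methylated in the CG, CHG and CHH contexts, where H stands for any base other than G. Transposons and their remnants usually carry methylation in every context and are kept silent by it, whereas methylated genes usually carry it in CG alone. DDM1 gives the methyltransferases access to compact heterochromatin, and stretches stripped of methylation in its mutant can stay so through generations of inbreeding, or can regain it where small RNAs direct methylation back. The deposited level joins all contexts, and a transposon with little CHH methylation reads well below the top of the scale.

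Nearly all of the set lay in a single interval. The table holds 3 intervals marked as quantitative trait loci (TAIR10 coordinates). The interval at 8937051 to 9698100 on chromosome 3 held 282 of the 298 windows, or 94.6%. The one at 22235451 to 23207500 on chromosome 3 held 14, and the one at 11363351 to 11824750 on chromosome 4 held 2. In the first interval the set made up 22.0% of the windows at 0.2 or more in Col-wt, against 1.62% in the second and 0.419% on chromosome 4. These shares follow from levels that the choice used.

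The windows formed 46 runs, counting windows no more than 100 bp apart as 1 run. 7 runs of 19 or more windows held 220 windows, 10 runs of 5 or more held 240 (80.5%), and 22 runs were single windows. In order along chromosome 3, the 7 long runs lay at 8937101 to 8938650, 8956301 to 8957600, 9015651 to 9017200, 9226851 to 9228000, 9228151 to 9230200, 9236801 to 9241000 and 9618551 to 9620150. The first of them begins 50 bp from the edge of the interval, so its full extent was not analysed here. The level was carried by many cytosines in most of the set: 277 windows had at least 10 in every line, and the median was 38 in epiRIL 150 and 38 in Col-wt. Of the 22 single windows, 10 had fewer than 10 cytosines in some line.

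Pseudogenes, which in this annotation include many transposon remnants, overlapped 176 of the 298 windows (59.1%). The background was 42.8% of all windows at 0.2 or more in Col-wt, and 46.2% of those in the first interval of chromosome 3. Much of the share came from 2 pseudogenes, AT3G25485 with 71 windows and AT3G25450 with 56. Protein-coding genes without a pseudogene overlapped 47 windows (15.8%, against 16.3% and 18.5%), and 75 windows (25.2%, against 36.0% and 32.9%) had no annotated gene. Whether a given pseudogene is a transposon was not examined. Windows lost in epiRILs 150, 193 and 232 together lay over protein-coding genes in 2.39% of cases, windows lost in epiRILs 193 and 232 but not 150 in 3.38%, and windows lost in epiRIL 232 alone in 6.99%. Their pseudogene shares were 51.3%, 73.0% and 55.1%, so the pseudogene share was not particular to the set. These groups were counted over all intervals, and the shares were not tested.

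Of 18 genes that the set touched, 12 overlapped at least 3 of its windows. The pseudogene AT3G25485 held the most: 71 of its 75 measured windows belonged to the set. AT3G25450, also a pseudogene, held 56 of its 85 windows, in 3 runs, and the pseudogenes AT3G24680, AT3G24675 and AT3G26265 held 23 of 32, 14 of 85 and 10 of 73. Among protein-coding genes, AT3G24542 held 21 of 30 windows and AT3G24514 held 17 of 30. AT3G24516 (4 windows), AT3G24517 (6) and the long noncoding RNA gene AT3G24518 (5) overlap the AT3G24514 run and partly share its windows. AT3G25090 and AT3G25460 held 3 each. The remaining genes, with 1 or 2 windows, include one for a U5 spliceosomal RNA (AT3G04905), inside the AT3G25450 tract.

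Over the whole set the epiRILs that chose it were nearly empty. EpiRIL 150 averaged 0.0339 and epiRIL 232 averaged 0.0210, against 0.321 in Col-wt. Their medians were 0.00831 and 0.00532. By the rule all 298 windows were lost in these 2 epiRILs and 0 in epiRIL 193; of all windows 2.26%, 3.34% and 2.61% were lost in epiRILs 150, 232 and 193, and of the windows at 0.2 or more in Col-wt 33.8%, 49.9% and 39.1%. In 167 windows both were under 0.02. EpiRIL 150 was above 0.1 in 28 windows and epiRIL 232 in 12. EpiRIL 193 averaged 0.340, or 106% of Col-wt, and was at or above Col-wt in 210 windows (70.5%), against 35.4% of all windows and 30.6% of methylated ones, a share fixed in part by the rule. In 24 windows epiRIL 193 was itself 0.1 or more lower, so the set is not purely one of full retention. At the limits, the smallest loss inside the set was 0.2 in both epiRIL 150 and epiRIL 232, and the largest loss in epiRIL 193 was 0.196. Just outside, the nearest excluded windows had losses of 0.1996 in epiRIL 150, 0.194 in epiRIL 232 and 0.205 in epiRIL 193.

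EpiRIL 92, which was not used in the choice, kept the set. It averaged 0.328 over the 298 windows, against 0.321 in Col-wt, and was above Col-wt in 200 windows (67.1%, background 39.1% of all windows and 48.9% of those at 0.2 or more in Col-wt). In all, 13 windows (4.36%) were lost in epiRIL 92, against a background of 0.535% of all windows and 8% of the windows at 0.2 or more in Col-wt. The share is below the background of methylated windows. Of the 13, 4 lie side by side, at 9471201 to 9471450, and are described below.

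**Figure D1:**
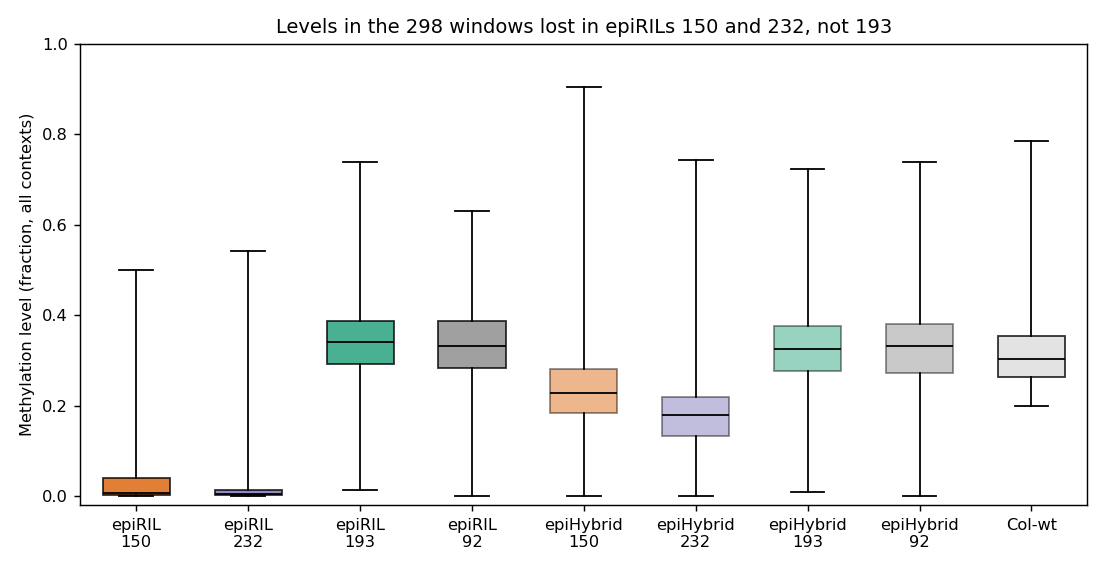
Methylation level (fraction, vertical axis) of each line over the 298 windows. Boxes span the quartiles with the median as a line, and whiskers reach the lowest and highest window. The medians of epiHybrids 150 and 232 (0.228 and 0.179) lie between those of their epiRILs and that of Col-wt (0.303), while epiRILs 193 and 92 and their epiHybrids stand at 0.326 to 0.342.

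The epiHybrids of the depleted epiRILs were intermediate, and that of line 232 was lower than that of line 150. EpiHybrid 150 averaged 0.242, between 0.0339 in epiRIL 150 and 0.321 in Col-wt, and held 75.4% of the Col-wt level. EpiHybrid 232 averaged 0.179, between 0.0210 in epiRIL 232 and 0.321 in Col-wt, and held 55.6%. EpiHybrid 193 averaged 0.329 and epiHybrid 92 averaged 0.335, that is, 102% and 105% of Col-wt. The epiHybrids of both epiRILs that kept these windows were thus close to Col-wt, and above it in 192 (64.4%, background 34.9% and 35.6%) and 198 windows (66.4%, background 35.4% and 59.5%).

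Since Col-wt entered the choice, the epiHybrids were also compared with each other. EpiHybrid 150 read below epiHybrid 193 in 265 of 298 windows (88.9%), against a background of 43.1% of all windows and 43.1% of the windows at 0.2 or more in Col-wt. It was lower by at least 0.1 in 136 windows (45.6%, background 1.08% and 10.3%) and higher by as much in 7 (2.35%, background 1.64% and 17.8%). EpiHybrid 232 read below epiHybrid 193 in 285 windows (95.6%, background 46.4% and 63.1%). It was lower by at least 0.1 in 224 (75.2%, background 2.08% and 23.5%) and higher by as much in 4 (1.34%, background 1.03% and 8.73%). Both shares were far above the background in the direction in which the epiRILs had been chosen to differ. The mean difference from epiHybrid 193 was -0.0869 for epiHybrid 150 and -0.150 for epiHybrid 232. EpiHybrid 92, for comparison, was at least 0.1 below epiHybrid 193 in 11 windows (3.69%, background 0.675% and 4.65%) and at least 0.1 above it in 16 (5.37%, background 2.46% and 29.6%). EpiHybrid 232 was below epiHybrid 150 in 226 windows (75.8%), against 48.1% of all windows and 70.2% of those at 0.2 or more in Col-wt, so that this order was nearly as frequent among methylated windows in general. By at least 0.1 it was lower in 66 windows (22.1%, background 2.13% and 24.2%) and higher in 10 (3.36%, background 0.68% and 3.96%), again near the shares among methylated windows. With 1 value per line, none of these differences could be tested.

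Against Col-wt, epiHybrids 150 and 232 had windows past the limit that defined loss in shares near those among methylated windows in general. The mean of epiRIL and Col-wt averaged 0.177 for line 150 and 0.171 for line 232, against 0.321 in Col-wt. An epiHybrid at that mean would thus, on average, not reach the limit. EpiHybrid 232 had 56 such windows (18.8%, background 1.13% of all and 16.9% of methylated windows), and epiHybrid 150 had 16 (5.37%, background 0.469% and 7.01%). EpiHybrids 193 and 92 had 6 and 5 (2.01% and 1.68%, background 0.64% and 0.257% of all, 9.57% and 3.85% of methylated windows). Of the 56 windows in epiHybrid 232, 30 lay in 1 tract, over AT3G26260 and AT3G26265.

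The mid-parent level is the mean of the epiRIL and Col-wt. For lines 150 and 232 both of these entered the choice, so methylated windows in general are not a like background for their shares. EpiHybrid 150 exceeded its own mid-parent level by 0.0644 on average (0.242 in the epiHybrid, 0.177 at mid-parent). It was at least 0.1 above in 75 windows (25.2%, background 1.1% of all and 9.91% of methylated windows) and at least 0.1 below in 6 (2.01%, background 0.405% and 5.37%). The 75 windows were unevenly spread. They included 24 of the 39 windows of the set in the tract over AT3G26260 and AT3G26265, and all 4 at 9471201 to 9471450. The tract over AT3G25485 gave 23 of its 78, nearer the share over the whole set. The tract at 9012901 to 9017250 gave 4 of 36, and the tracts over AT3G24514 and AT3G24542 gave 0 of 21 each. EpiHybrid 232 differed from its own mid-parent level by 0.00755 (0.179 in the epiHybrid, 0.171 at mid-parent). It was at least 0.1 above in 21 windows (7.05%, background 0.839% and 6.1%) and at least 0.1 below in 25 (8.39%, background 0.479% and 6.4%). Of these 25, 17 lay in the tract over AT3G26260 and AT3G26265 and 4 at 9471201 to 9471450. In the lines whose epiRIL kept the set, epiHybrid 92 was at least 0.1 above mid-parent in 14 windows (4.70%, background 1.01% and 9.6%) and as far below in 8 (2.68%, background 0.395% and 5.22%). EpiHybrid 193 was above in 4 (1.34%, background 1.07% and 9.53%) and below in 14 (4.70%, background 0.39% and 4.99%). On a scale that runs from 0 (as in Col-wt) through 0.5 (mid-parent) to 1 (as in the epiRIL), called its position here, epiHybrid 150 stood at 0.276 and epiHybrid 232 at 0.475. The position of epiHybrid 232 lay so close to mid-parent that it was 0.504 without the longest run and 0.507 with a loss of at least 0.3, on the epiRIL side.

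Set beside the most similar groups of windows, epiHybrid 150 held more of the Col-wt level here than in the 503 windows lost in epiRILs 150, 193 and 232, where it held 61.0% and stood at a position of 0.421. EpiHybrid 232 held 49.1% there, at a position of 0.549. Of those 503 windows, 138 lay in the tract over AT3G62475 to AT3G62490 and 116 in that over AT3G60164 to AT3G60180. Both tracts are in the second interval of chromosome 3, so this comparison is largely between intervals. The position of epiHybrid 150 over the set was 0.308 without the AT3G26265 tract. In the 237 windows lost in epiRILs 193 and 232 but not 150, epiHybrid 232 held 58.6% (position 0.470), while epiHybrid 150, whose epiRIL had kept them, held 101%. In the 272 windows lost in epiRIL 232 alone, epiHybrid 232 held 60.6% (position 0.443). Within the first interval of chromosome 3, epiHybrid 232 held 54.7% over the 282 windows of the set (position 0.482), against 55.5% over the 204 windows lost in epiRILs 193 and 232 but not 150 (position 0.469). It held 56.5% there over the 203 windows lost in epiRIL 232 alone (position 0.464). The values of epiHybrid 232 were thus close to each other in these 3 groups of the interval. None of these comparisons was tested.

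The runs differed among themselves. In the longest, 78 windows at 9236801 to 9241000 over AT3G25485, epiRIL 150 read 0.0281, epiRIL 232 0.0203, epiRIL 193 0.352 and epiRIL 92 0.356. EpiHybrid 150 read 0.251, epiHybrid 232 0.202, epiHybrid 193 0.351 and epiHybrid 92 0.353, with Col-wt at 0.319. Every one of the 78 windows was lower in epiHybrid 150 than in epiHybrid 193, and every one was lower in epiHybrid 232 than in epiHybrid 193. The run ended sharply on its left side: over 500 bp beyond it all 9 lines averaged at most 0.0140. The tract methylated in Col-wt at this place had 82 windows, of which 78 belonged to the set and 4 were lost in epiRIL 232 but not past the limit in epiRIL 150.

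**Figure D2:**
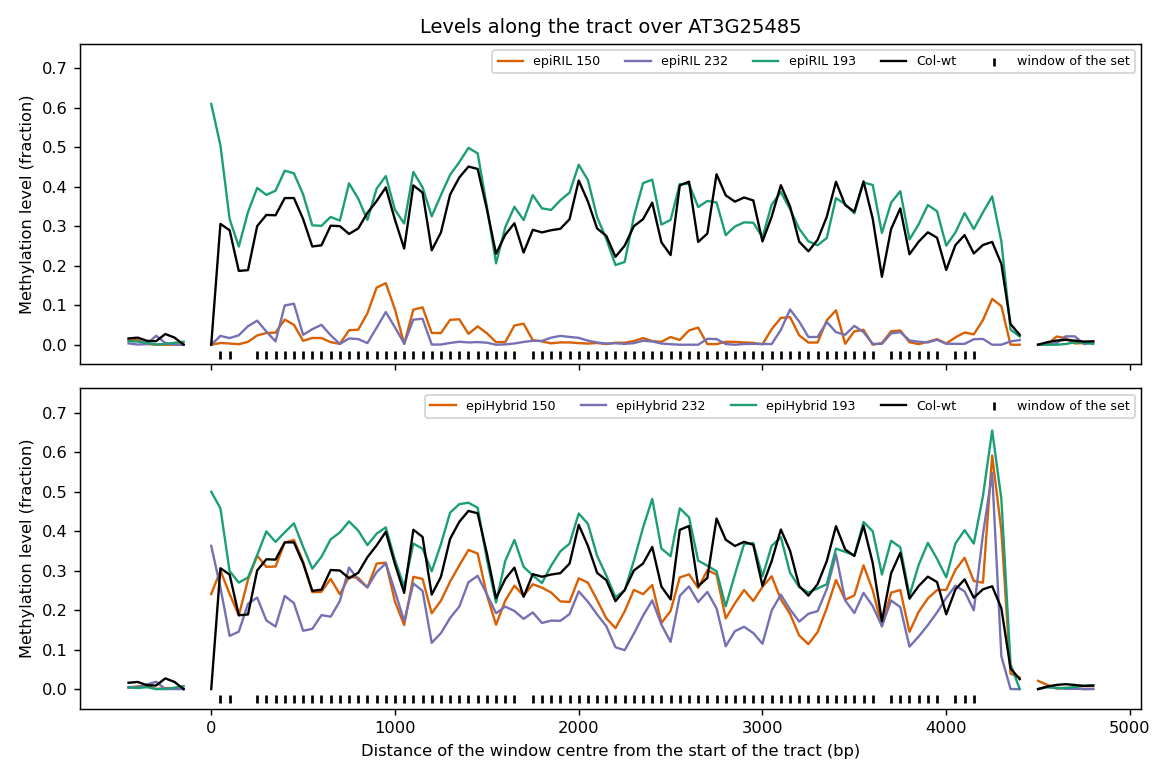
Methylation level (fraction) of each window against the distance of its centre from the start of the tract over AT3G25485 (bp), epiRILs above and epiHybrids below, each with Col-wt; ticks mark windows of the set. Over the 78 windows of the set epiRILs 150 and 232 average 0.0281 and 0.0203, with local maxima of 0.156 and 0.104, and epiHybrids 150 and 232 average 0.251 and 0.202, against 0.319 in Col-wt; epiHybrid 150 is above Col-wt in 8 of the windows.

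Over AT3G25450 the set was split into 3 runs by short gaps. At 9228151 to 9230200 (32 windows) epiHybrid 150 read 0.206 and epiHybrid 232 0.178, with 0.0132 in epiRIL 150, 0.00530 in epiRIL 232 and 0.282 in Col-wt. At 9226851 to 9228000 (19 windows, which also touch AT3G04905) the order of the epiHybrids was the other way round, with 0.175 in epiHybrid 150, 0.205 in epiHybrid 232 and 0.278 in Col-wt. At 9230351 to 9231000 (6 windows) they read 0.207, 0.191 and 0.277. In these 3 runs epiRIL 193 stood at 117%, 119% and 132% of Col-wt and epiRIL 92 at 109%, 122% and 125%. Col-wt was thus lower here than epiRILs 193 and 92, and it was lower than their epiHybrids too. This was not particular to AT3G25450. Among the 10 longest runs, only those beside AT3G26260 and over AT3G26265 differed.

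Of the 7 long runs, 2 lay over protein-coding genes. At 8956301 to 8957600, 21 windows over AT3G24542, epiRIL 150 read 0.00864 and epiRIL 232 0.00604, against 0.368 in epiRIL 193 and 0.334 in Col-wt. EpiHybrid 150 read 0.217 and epiHybrid 232 0.168, at positions of 0.358 and 0.505. At 8937101 to 8938650, 21 windows over AT3G24514 and parts of its overlapping neighbours, epiHybrids 150 and 232 both read 0.18, with 0.0139 in epiRIL 150, 0.0181 in epiRIL 232 and 0.296 in Col-wt. Their positions there, 0.411 and 0.417, were the closest to each other among the 10 longest runs. EpiRIL 92 was high in that run, at 0.361, or 122% of Col-wt.

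Over the neighbouring pseudogenes AT3G24675 and AT3G24680 the loss in epiRIL 150 was graded. In the 26 windows at 9015651 to 9017200 it read 0.0190, against 0.326 in Col-wt, and in the 8 windows at 9014201 to 9015050 it read 0.08, against 0.305 in Col-wt. EpiRIL 232 read 0.00993 and 0.0196 in these runs. The Col-wt methylated tract around both, at 9012901 to 9017250, held 78 windows: 36 belonged to the set, and 39 were lost in epiRIL 232 alone. EpiRIL 150 was under 25% of Col-wt in 34 of the 78, at 75% or more in 5 and between these in 39, where it averaged 0.131, against 0.292 in Col-wt. In the tract as a whole epiHybrid 150 read 0.248 and epiHybrid 232 0.2, with 0.298 in Col-wt.

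**Figure D3:**
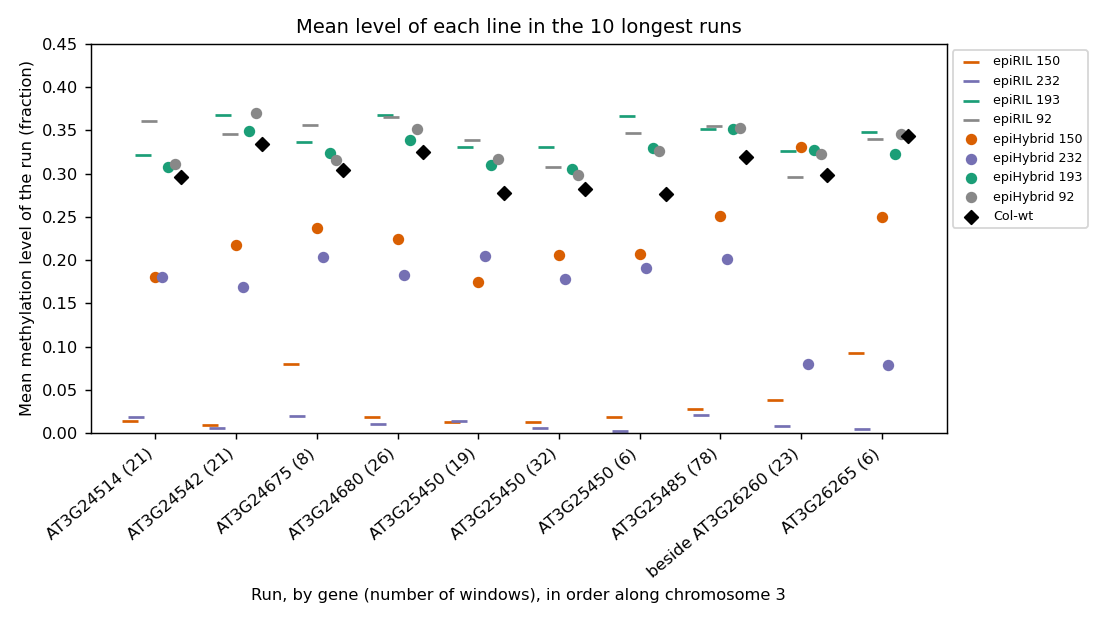
Mean methylation level (fraction) of each line in the 10 longest runs, in their order along chromosome 3, labelled by gene with the number of windows in brackets. Dashes are epiRILs, circles epiHybrids and diamonds Col-wt; epiHybrid 232 lies at 0.168 to 0.205 in the first 8 runs and at 0.0795 and 0.0787 in the last 2.

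The tract at 9617551 to 9625600, over AT3G26260 and AT3G26265, was patchy in epiRIL 150. Among tracts with 19 or more windows of the set, it stood apart in epiHybrids 150 and 232. EpiHybrid 150 was near Col-wt elsewhere too. It held 101% in the tract at 9011501 to 9012750 over AT3G24675, where epiRIL 150 held 34.1% and 4 of 20 methylated windows belonged to the set. Both departures also occurred in the short stretch at 9471201 to 9471450, described below. The patchy tract held 149 windows at 0.2 or more in Col-wt, of which 39 belonged to the set and 93 were lost in epiRIL 232 alone. EpiRIL 150 was under 25% of Col-wt in 33 of the 149 and at 75% or more in 55. The largest depleted patch was the run of 23 windows at 9618551 to 9620150, which has no annotated gene and lies 54 bp from AT3G26260. EpiRIL 150 read 0.0376 there, epiRIL 232 0.00852, epiRIL 193 0.326 and epiRIL 92 0.297. EpiHybrid 150 read 0.331 and epiHybrid 232 0.0795, with Col-wt at 0.299. EpiHybrid 150 was therefore above Col-wt (in 19 of 23 windows) and epiHybrid 232 below its mid-parent level of 0.154 (above it in 2 of 23).

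Smaller patches of the same tract, over AT3G26265, had a low epiHybrid 232 as well. At 9622601 to 9622950 (6 windows) epiHybrid 232 read 0.0787, with 0.00445 in epiRIL 232 and 0.344 in Col-wt, and epiHybrid 150 read 0.25, with 0.0926 in epiRIL 150. At 9621401 to 9621650 (4 windows) epiHybrid 232 read 0.0663 and epiHybrid 150 0.272, with 0.325 in Col-wt. Over the 39 windows of the set in this tract, epiHybrid 150 stood at a position of 0.0362 and epiHybrid 232 at 0.763. Without them, the positions over the set were 0.308 and 0.429, and the share of windows lost in epiHybrid 232 was 10.04%, against 18.8% with them. Within the tract, epiHybrid 232 averaged 0.0637 in the 33 windows where epiRIL 150 was under 25% of Col-wt and 0.145 in the 55 where it was at 75% or more, although these classes were made from another line. Col-wt read 0.291 and 0.308 in the same windows. The other lines were lower in the first class too. EpiRIL 232 itself read 0.00361 and 0.0185, epiRIL 193 0.263 and 0.318, and epiRIL 92 0.281 and 0.346. The order of epiHybrid 232 was not particular to this tract. Over AT3G24675 and AT3G24680 it read 0.178 in the 34 windows under 25% and 0.229 in the 5 at 75% or more. Col-wt read 0.309 and 0.271 there. A link with the patches of epiRIL 150 was not tested.

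**Figure D4:**
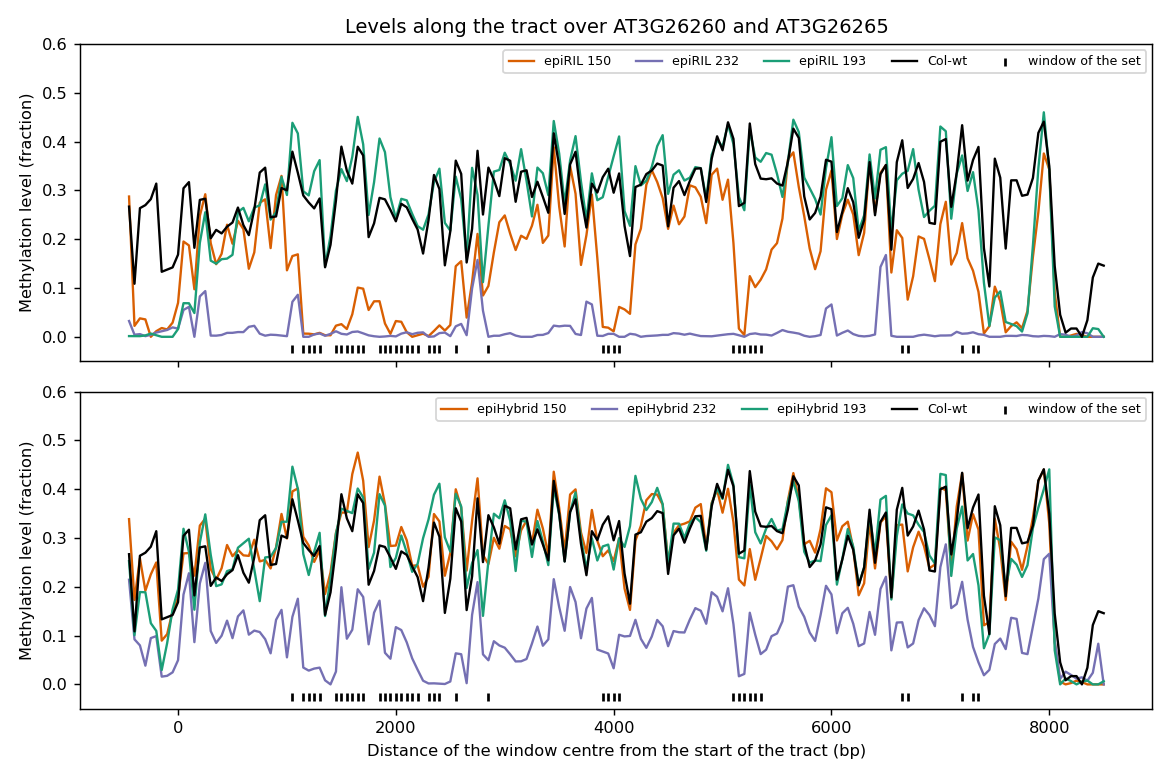
Methylation level (fraction) of each window against the distance of its centre from the start of the tract over AT3G26260 and AT3G26265 (bp), epiRILs above and epiHybrids below, each with Col-wt; ticks mark windows of the set. EpiRIL 150 drops in separate patches, where the set lies, while epiRIL 232 averages 0.0135 over the methylated windows of the tract; there epiHybrid 150 averages 0.313 and epiHybrid 232 0.117, against 0.311 in Col-wt.

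Next to this tract the lines exchanged places. In the 64 windows at 9613501 to 9617400, over AT3G26260, none belonged to the set: epiRIL 193 read 0.0108 and epiRIL 232 0.00993, while epiRIL 150 read 0.265, against 0.304 in Col-wt. EpiHybrid 193 read 0.245 there, epiHybrid 232 0.135 and epiHybrid 150 0.322. The loss in epiRIL 232 thus ran on across both tracts, whereas epiRIL 193 lost the first and kept most of the second. Further left, between the runs at AT3G25485 and AT3G26260, the long tract at 9387951 to 9393200 over AT3G25725 was kept by epiRILs 150, 232, 193 and 92 (113%, 107%, 109% and 109% of Col-wt). Loss in epiRILs 232 and 193 with epiRIL 150 kept also occurred elsewhere in the interval. At 9435001 to 9437100, over AT3G25815, epiRILs 232, 193 and 150 held 12.8%, 11.9% and 120% of Col-wt. At 9692201 to 9697900, over AT3G26483 and AT3G26486, they held 3.15%, 3.90% and 111%. Of the 41 tracts of this interval with at least 5 methylated windows in Col-wt, 16 held a window of the set. Over all intervals, 24 of 88 tracts did, 10 of them with 1 window, and in 6 tracts most of the methylated windows belonged to the set.

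**Figure D5:**
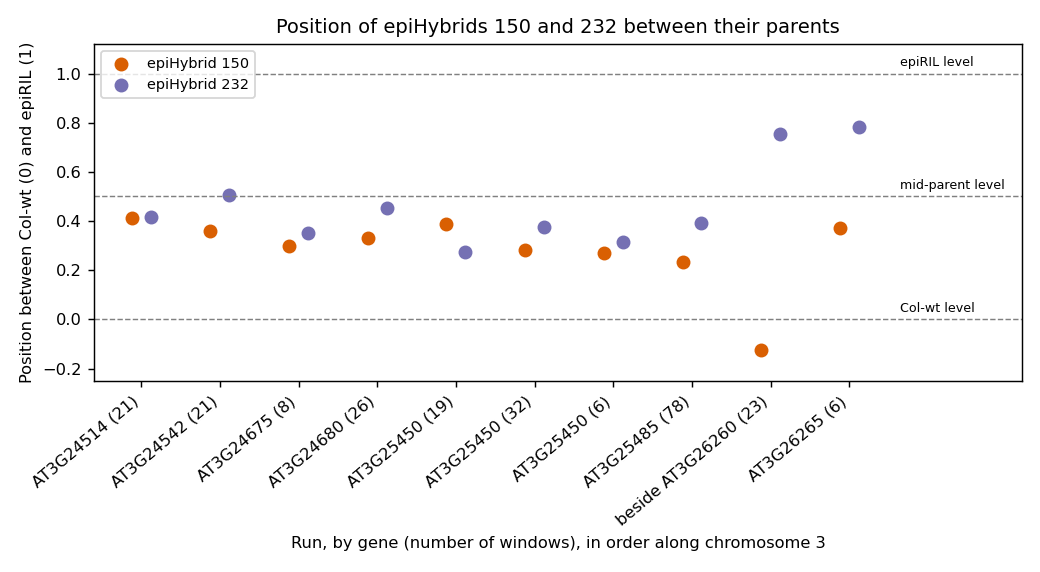
Position of epiHybrids 150 and 232 between Col-wt (0) and their epiRIL (1) in the 10 longest runs, in their order along chromosome 3, labelled by gene with the number of windows in brackets. EpiHybrid 150 ranges from -0.124 to 0.411 and is on the Col-wt side of the mid-parent level (0.5) in all 10; epiHybrid 232 ranges from 0.276 to 0.781.

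Across these 10 runs the position of epiHybrid 150 had a median of 0.316, and its level was above mid-parent in 10 of 10. The position of epiHybrid 232 had a median of 0.405, and its level was above mid-parent in 7 of 10. The others were the runs beside AT3G26260 and over AT3G26265, and the AT3G24542 run, at 0.505.

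A short stretch at 9471201 to 9471450, singled out after its values were seen, had a high level in Col-wt. It lies 162 bp from NIMIN-2, whose product binds the salicylic acid signalling regulator NPR1. Over its 4 overlapping windows epiRILs 150, 232 and 92 read 0.00157, 0.00411 and 0.0127, whereas epiRIL 193 read 0.654 and Col-wt 0.748. EpiHybrid 150 read 0.814 and epiHybrid 92 read 0.714, both near Col-wt, although their epiRILs were nearly empty. EpiHybrid 232 read 0.0137, near its epiRIL, and epiHybrid 193 read 0.658. The number of cytosines behind these levels differed between windows and was as low as 2 in the last of them, where Col-wt and epiRIL 150 had 2 each and epiHybrid 150 had 17. In the first window it was 24 in epiRIL 150 and 33 in Col-wt.

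The 16 windows outside the first interval were scattered in 10 runs and followed the pattern less closely. EpiHybrid 150 averaged 0.259, epiHybrid 232 0.255 and epiHybrid 193 0.279 there, against 0.364 in Col-wt, and epiRIL 193 itself averaged 0.256, or 70.3% of Col-wt. The longest of these runs, 4 windows at 22389851 to 22390200 at the edge of the pseudogene AT3G60565, also differed in the epiHybrids: epiHybrid 150 read 0.395 and epiHybrid 232 0.339, against 0.361 in Col-wt, and epiHybrid 193 read 0.201, under its epiRIL at 0.270. It lies at the end of a tract in which 9 of 15 methylated windows were lost in epiRILs 150, 193 and 232. One window on chromosome 4, at 11526301 to 11526400 829 bp from the gibberellin 3-oxidase gene GA3OX3, read 0.0343 in epiRIL 193 and at most 0.0106 in every other line but Col-wt, which read 0.221. It belongs to the set although epiRIL 193 was nearly as low there as epiRILs 150 and 232. In all, 8 windows of the set had epiRIL 193 under 0.1, some of them in the first interval.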

How the data were processed

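Bisulfite sequencing libraries (18, from 9 lines with 2 each) were made from about 5000 ng of DNA, per the labels. Tools listed in the submitters' processing notes are BS-Seeker2, Bowtie2 and cutadapt, with the build TAIR10 and no versions. The authors deposited, per line and 100 bp window, a methylation level as a fraction and a number of cytosines, with both libraries of a line combined in a way not given in the sources used here. A level was missing exactly where the number of cytosines was 0. Read depth is unknown, so no interval or detection limit is given, and p-values could not be had. The deposited differences from mid-parent equalled those recomputed here within 5.55e-16. The 8 other per-line columns of the table were not used.

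From the 39236 windows of 43887 with a level in all 9 lines, the set was chosen by differences from Col-wt of 0.2, with Python 3.11.15 and pandas 2.3.3. The members and lists were chosen with earlier results of these data known. Windows no more than 100 bp apart formed runs. The 10 runs with the most windows and genes with at least 3 windows of the set were named. Tracts were runs of at least 5 windows at 0.2 or more in Col-wt. The functions that find sets and runs were tested on simulated data. Genes were matched by position to RefSeq (TAIR10.1): the correlation across windows of protein-coding cover with the number of cytosines in epiRIL 92 was 0.264, and 0.239 and 0.238 with the genes shifted by 250 bp either way. A planned description of sequence context was not made, since no genome was used here. Strand, exons and UTRs were not used. The alternatives tried are given in the closing section.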

Additional observations from a re-analysis of the deposited data

Results flagged for a closer look

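In the run at 9618551 to 9620150 beside AT3G26260, epiHybrid 232 read 0.0795, far from the other 3 epiHybrids, which lay between 0.323 and 0.331. The gap to the nearest of them was 0.966 of the whole range, above Dixon's limit for 4 values. Chance passes that limit in about 1 of 20 groups of like values, and it served here to flag runs only. It was applied to the 10 longest runs, and this was the single one past it. The 4 epiHybrids are lines with different epiRIL parents, not replicates.

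The same run showed opposite departures from the mid-parent level, by 0.163 in epiHybrid 150 (0.331, mid-parent 0.168) and by -0.0741 in epiHybrid 232 (0.0795, mid-parent 0.154). With 1 value per line, the difference between them was not tested.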

How the results depend on the processing

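Of 198 recomputed values (16 results, 12 alternative settings and 2 chosen after seeing the data), 158 moved by no more than the SD over the 10 longest runs, or 1.5 times for counts and percents. That SD is a spread between runs and not an error. It was wide for the positions of epiHybrids 150 and 232, at 0.154 and 0.174. Leaving out the second interval of chromosome 3 or chromosome 4 removed only 14 or 2 windows. The count of 158 is therefore a weak sign of stability. The position of epiHybrid 232, 0.475 over the whole set, crossed mid-parent to 0.507 with a loss of 0.3 and to 0.504 without the longest run, an alternative chosen after seeing the data. Taking windows without overlap left 146 windows, a loss of at least 0.3 left 107, and a ratio to Col-wt gave 28 runs. With a loss of 0.3, epiHybrid 92 averaged 0.389, epiHybrid 193 0.362 and epiRIL 92 0.360. With a loss of 0.15, epiHybrid 193 averaged 0.311. In the 399 windows that begin 100 bp to either side of a member, of which 174 were no members, epiHybrid 92 averaged 0.302 and epiHybrid 193 0.294.

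The share of windows at least 0.2 below Col-wt moved most. With at least 10 cytosines it was 0.361% in epiHybrid 92, 3.25% in epiHybrid 150 and 0.722% in epiHybrid 193. Without overlap it was 2.74% in epiHybrid 92. With a loss of 0.15 it was 3.14%, 10.9%, 3.86% and 32.9% in epiHybrids 92, 150, 193 and 232, and with 0.3 it was 0.935%, 2.80%, 0.935% and 8.41%. With epiRIL 193 less than 0.1 below Col-wt it was 0.365% in epiHybrid 92 and 0.730% in epiHybrid 193. With a ratio it was 0.386%, 3.47% and 0.772% in epiHybrids 92, 150 and 193. With the mean of Col-wt and epiRIL 92 as wild type it was 0.299% in epiHybrid 92 and 0.599% in epiHybrid 193. Without the AT3G26265 tract, an alternative chosen after seeing the data, it was 10.04% in epiHybrid 232.

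Leaving out the first interval of chromosome 3 left 16 windows in 10 runs. There epiHybrid 193 averaged 0.279, epiHybrid 232 0.255 and epiRIL 92 0.299. The order of epiHybrids 150 and 232 turned there in position (0.359 and 0.351) and in the share at least 0.2 below Col-wt. The shares were 6.25%, 31.2%, 18.8% and 12.5% in epiHybrids 92, 150, 193 and 232. The differences from epiHybrid 193 were -0.0205 for epiHybrid 150 and -0.0239 for epiHybrid 232. The cause of these shifts was not tested, beyond the smaller number of windows. No paired analysis was possible because both libraries of a line share 1 column without replicate numbers, and for the same reason no library could be left out. Read depth behind each level is unknown.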
